A study of Mus musculus with 2 samples.

Results

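Carriers of amino acids and neurotransmitters were examined in cultured mouse tracheal epithelial cells with and without Gprc5a, an orphan G protein-coupled receptor induced by retinoic acid. They comprised the genes measured under a symbol of their own that is made of 1 of 7 solute carrier family names and a number. The families were Slc1a, Slc3a, Slc6a, Slc7a, Slc36a, Slc38a and Slc43a. This gave 57 of the 14860 genes on the array, each represented by 1 probe set. The rule used names only, but it was chosen with earlier results of these data known. Slc1a2, whose probe set carries a further name, is not analysed here. Slc6a20a and Slc6a20b, whose symbols end in a letter, are not among the 57 and were placed in a list of other carriers. RNA of 1 wild-type sample (Gprc5a+/+) and 1 knockout sample (Gprc5a-/-) was hybridised to an Affymetrix whole-transcript array. The mice were 3 weeks old, of a C57 BL/6 × 129sv background, and neither group was treated. Cells of both genotypes were in exponential growth in K-SFM, a keratinocyte medium without serum that contained bovine pituitary extract at 50 μg/ml and epidermal growth factor at 5 ng/ml. How many mice or cultures stood behind a sample is not given in the sources used here.

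Amino acid carriers of the plasma membrane fall into classes that differ in what they transport and in what drives them. Concentrative carriers use the gradients of sodium, chloride or protons to raise amino acids inside the cell. Exchangers such as the light chains of the Slc7a family swap an inner for an outer amino acid, and many of them reach the membrane only when joined to the heavy chain Slc3a2 (4F2hc, CD98) or Slc3a1 (rBAT). Other members sit on lysosomes and report amino acids to the growth kinase complex mTORC1, and much of the Slc6a family clears neurotransmitters at synapses. In airway epithelium such carriers are known to feed protein and glutathione synthesis and to remove amino acids from the surface liquid.

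All values are log2 values from the authors' RMA normalization, and a difference is the knockout minus the wild-type value. With 1 sample per genotype neither a test nor an error could be given, so the differences describe these 2 samples. A 2-fold difference was counted where the gene's higher value was above 6.76, the median over both arrays of every probe set that names a gene. The 95th percentile of 800 olfactory and vomeronasal receptor genes, 5.05, served as the level of genes that these cells should not express. Gprc5a itself read 9.49 in wild-type and 4.05 in knockout cells, a 43.3-fold difference, or 21.6-fold with the knockout value raised to 5.05. Of 10 airway basal cell markers, 9 passed the level filter (Krt5 at 12.71 and 12.62), and no marker measured for neurons and neuroendocrine cells, glia, fibroblasts, immune cells or endothelium did. Of the 10 basal markers, 7 were lower in the knockout (beside 54.0% of all genes) and 3 higher. Their differences ran from -0.41 (Epcam) to 0.69 (Krt15), with a median of -0.13. Fewer cells of a type and less RNA per cell cannot be told apart in such bulk samples.

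Of the 57 carriers, 5 had a value at least 2-fold higher without Gprc5a and 1 had a value at least 2-fold lower. The higher genes were Slc6a14, Slc1a1, Slc7a8, Slc7a2 and Slc43a2, and the lower gene was Slc6a9. In all, 22 carriers passed the level filter, and among all 7943 genes that passed it 4.62% were higher and 2.97% lower by that much. Without the filter the same 6 carriers were 8.77% (higher) and 1.75% (lower) of the 57, beside 3.34% and 2.11% of all 14860 genes. All 5 higher carriers passed the filter by their knockout value only, and a gene that passes in this way must be higher in the knockout. Such genes numbered 372 on the array, of which 203 (54.6%) reached 2-fold. Among the 17 carriers whose values in both samples exceeded 6.76, none was 2-fold higher and 1 was 2-fold lower, beside 2.25% and 1.45% of the 7303 genes of that kind.

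**Figure D1:**
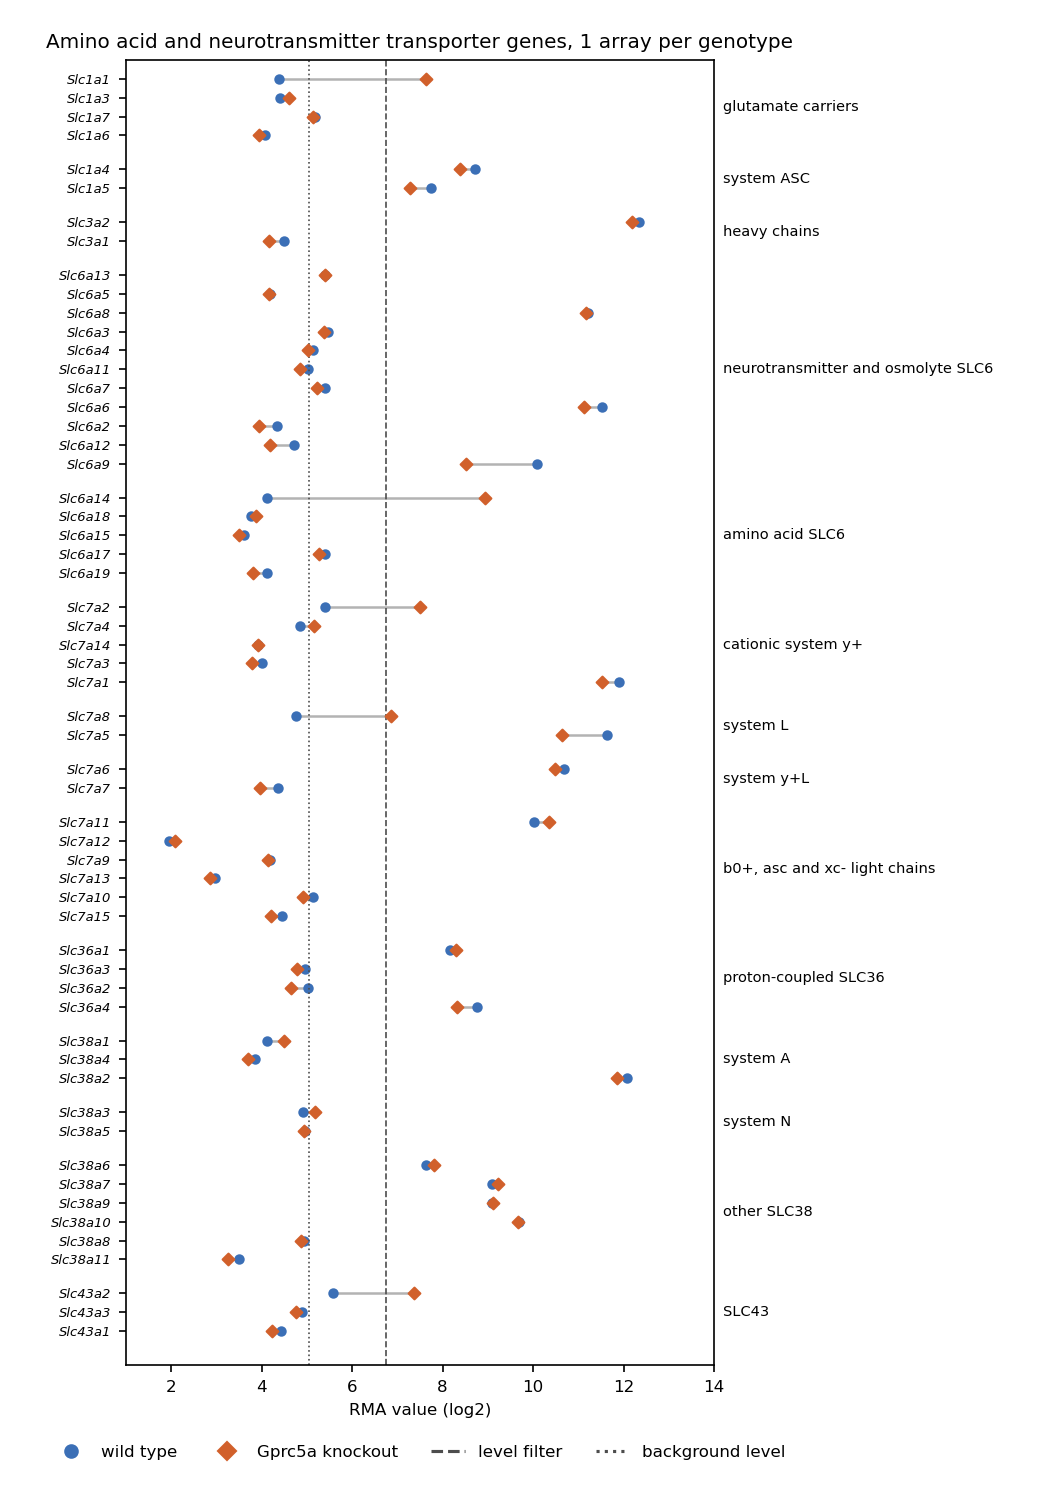
RMA values (log2, horizontal axis) of the 57 carrier genes in the wild-type sample (circles) and the Gprc5a knockout sample (diamonds), grouped by transport system, with the level filter of 6.76 (dashed line) and the background level of 5.05 (dotted line). In 5 genes the symbols cross the dashed line from left to right, Slc6a9 is the widest pair in the other direction, and most other pairs nearly touch.

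Slc6a14 encodes ATB0,+, a sodium- and chloride-driven carrier that accumulates neutral and cationic amino acids and is known from airway and colon epithelium. Wild-type cells had a value of 4.11, below the background level, and knockout cells 8.94. The difference of 4.83 corresponds to 28.4-fold, and to 14.7-fold with the wild-type value raised to 5.05. Of the 14860 genes, 8 had a higher difference, and 14 did once all low values were raised to that level. The other members of the amino acid branch of the family were near or below background in both samples. Slc6a17, a vesicular carrier of neurons, was at 5.41 and 5.26, and Slc6a19, the apical neutral amino acid carrier of gut and kidney, at 4.11 and 3.80.

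Slc1a1 encodes EAAC1 (EAAT3), which takes up glutamate, aspartate and cysteine with sodium. The wild-type value was 4.39 and the knockout value 7.62, a difference of 3.24 or 9.44-fold. With the wild-type value raised to the background level the difference was 5.94-fold, and 43 genes on the array had a higher difference, or 59 once all low values were raised. None of the other measured glutamate carriers passed the filter. The glial carrier gene Slc1a3 (GLAST) was at 4.41 and 4.60, and the retinal carrier gene Slc1a7 at 5.19 and 5.14. Slc1a4 and Slc1a5, which belong to the same family but exchange neutral amino acids such as serine and glutamine (system ASC), were both lower. Slc1a4 went from 8.71 to 8.39, and Slc1a5, the glutamine carrier ASCT2, from 7.75 to 7.28, differences of -0.32 and -0.47.

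The system L exchangers Slc7a5 and Slc7a8, which swap large neutral amino acids such as leucine, differed in opposite directions. Slc7a5 (LAT1), the carrier typical of dividing cells, went from a wild-type value of 11.63 to 10.64. Its difference of -0.98, or 1.98-fold, fell just short of the 2-fold threshold. Slc7a8 (LAT2), known from polarised epithelia such as kidney and gut, went from 4.76 to 6.87. This difference of 2.11 was 4.31-fold, or 3.52-fold from the background level, and the knockout value lay only just above the filter of 6.76. The heavy chain gene Slc3a2, partner of both, differed little, at 12.34 and 12.18.

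Slc43a2 encodes LAT4, which lets branched-chain and aromatic amino acids pass without exchange or ion coupling. Wild-type cells gave 5.57 and knockout cells 7.37, a difference of 1.80 or 3.48-fold, with both values above the background level. Its relatives Slc43a1 (LAT3), at 4.44 and 4.23, and Slc43a3, a nucleobase carrier, at 4.90 and 4.75, lay below the background level in both samples.

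Among the cationic amino acid carriers of system y+, the gene that passed the filter in both samples was slightly lower and another was higher. Slc7a1 (CAT-1), the widely expressed arginine and lysine carrier, went from 11.91 to 11.53, a difference of -0.38. Slc7a2 (CAT-2), known in macrophages to supply arginine for nitric oxide synthesis, was at 5.40 and 7.50. That difference of 2.09 was 4.27-fold, and both values were above the background level. The inducible nitric oxide synthase gene Nos2 was below background in both samples, at 4.60 and 4.85. The related genes Slc7a4, at 4.84 and 5.15, and Slc7a14, at 3.92 and 3.92, did not pass the filter.

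Slc6a9, the sodium- and chloride-driven glycine carrier GLYT1, was the carrier with the lowest difference. Wild-type cells stood at 10.08 and knockout cells at 8.51, both above the filter. The difference of -1.57 corresponds to 2.97-fold, and 140 genes had a lower difference. Slc6a5, the glycine carrier GLYT2 of glycinergic neurons, was below background at 4.17 and 4.16. Slc6a6, which takes up the osmolyte taurine, went from 11.52 to 11.12 (difference -0.40), and Slc6a8, the creatine carrier, from 11.22 to 11.18 (difference -0.04). The 8 other members of the neurotransmitter and osmolyte branch, which carry GABA, betaine, proline, glycine or monoamines, ranged from 4.17 to 5.48 in wild-type cells and from 3.94 to 5.39 in knockout cells. Of these, the dopamine carrier gene Slc6a3 was at 5.48 and 5.38, and the GABA carrier gene Slc6a13 at 5.39 and 5.39. None of the 8 reached the filter, and 4 were below background in both samples.

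**Figure D2:**
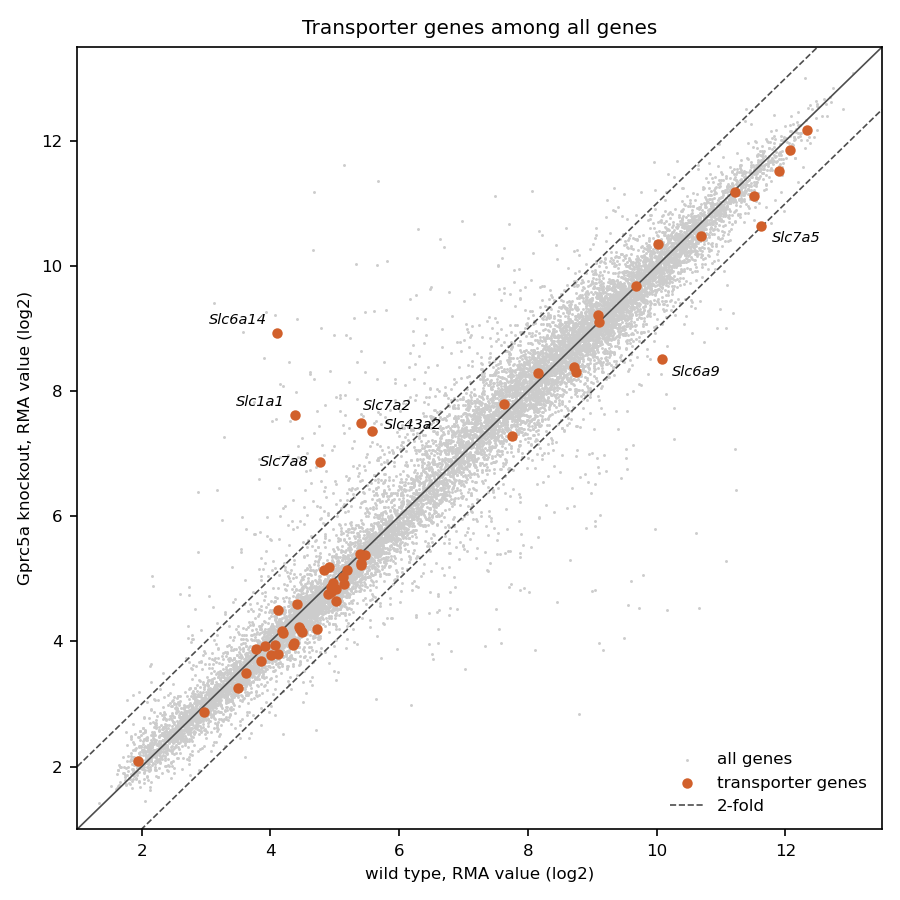
Knockout against wild-type RMA values (log2) of all 14860 genes (grey) and the 57 carriers (orange), with lines of equality and of 2-fold difference. Of the carriers, 5 lie above the upper 2-fold line, Slc6a9 lies below the lower one, and Slc7a5 lies almost on it.

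Promoter sequences are shown for carriers at the ends of the range, to let the letters upstream of their starts be read beside the values. Of the 57 carriers, 40 had at least 1 entry in the RefSeq promoter table (assembly GRCm38.p6), which covers 250 bases before and 50 after a transcript start. Slc7a2 and Slc7a5 had none. Both strands were searched for 4 motifs of pathways that respond to amino acids, oxidants, cytokines and growth signals. These were the C/EBP-ATF response element TGATGNAA, the core of the antioxidant response element TGACNNNGC, the STAT site TTCNNNGAA and the E-box CACGTG. They were held by 3.97%, 12.4%, 8.30% and 7.15% of all 32851 promoters in the table. Capitals mark the matches, which did not overlap. The promoters of the higher genes Slc6a14 (chrX:21714650-21714949, plus strand), Slc1a1 (chr19:28834885-28835184, plus strand) and Slc7a8 (chr14:54781837-54782136, minus strand) held none of the 4, and neither did the 2 entries of Slc43a2. The lower gene Slc6a9 has 3 entries, of which the first held none of the 4 motifs and the others each held 1 match to the antioxidant core. The second (chr4:117849100-117849399, plus strand) is shown. Slc7a11 (chr3:50443564-50443863, minus strand), shown for contrast, held 2 matches to the C/EBP-ATF element, the kind of element through which the stress factor ATF4 is known to act, and 1 to the STAT site.
Slc6a14: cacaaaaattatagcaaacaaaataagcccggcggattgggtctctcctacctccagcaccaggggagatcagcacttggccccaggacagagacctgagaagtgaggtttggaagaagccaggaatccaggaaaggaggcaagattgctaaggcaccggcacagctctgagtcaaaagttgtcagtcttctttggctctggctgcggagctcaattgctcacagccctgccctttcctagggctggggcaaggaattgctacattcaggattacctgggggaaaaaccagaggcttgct
Slc1a1: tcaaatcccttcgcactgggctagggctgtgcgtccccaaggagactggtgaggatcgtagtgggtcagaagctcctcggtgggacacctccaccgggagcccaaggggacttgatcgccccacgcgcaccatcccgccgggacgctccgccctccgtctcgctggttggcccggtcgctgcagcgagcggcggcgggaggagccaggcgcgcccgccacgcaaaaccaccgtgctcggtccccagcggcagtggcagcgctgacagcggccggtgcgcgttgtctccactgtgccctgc
Slc7a8: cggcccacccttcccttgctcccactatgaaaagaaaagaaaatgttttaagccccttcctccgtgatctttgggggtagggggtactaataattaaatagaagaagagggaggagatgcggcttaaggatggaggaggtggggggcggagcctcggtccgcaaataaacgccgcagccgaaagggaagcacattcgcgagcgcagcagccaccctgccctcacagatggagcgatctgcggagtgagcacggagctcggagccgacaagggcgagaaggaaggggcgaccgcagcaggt
Slc6a9: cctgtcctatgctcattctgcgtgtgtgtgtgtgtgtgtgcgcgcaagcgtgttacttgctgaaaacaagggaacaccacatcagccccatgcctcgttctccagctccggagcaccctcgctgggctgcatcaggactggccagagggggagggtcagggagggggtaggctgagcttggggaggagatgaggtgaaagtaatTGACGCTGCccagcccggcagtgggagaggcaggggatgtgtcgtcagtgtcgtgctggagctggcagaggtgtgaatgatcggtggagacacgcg
Slc7a11: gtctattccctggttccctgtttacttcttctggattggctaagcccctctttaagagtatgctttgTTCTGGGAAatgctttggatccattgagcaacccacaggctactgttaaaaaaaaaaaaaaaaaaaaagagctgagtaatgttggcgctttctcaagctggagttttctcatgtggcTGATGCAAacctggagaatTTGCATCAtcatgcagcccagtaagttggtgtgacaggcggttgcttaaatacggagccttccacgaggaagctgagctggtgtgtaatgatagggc
A match describes these letters and is no evidence of binding, and a promoter without a match says only that the letters are absent from this window. Among all 40 carriers with an entry, the C/EBP-ATF element was found in Slc1a4, Slc7a7 and Slc7a11, none of which differed by 2-fold. Of the 61 entries of carriers, 4 held it, 10 held the antioxidant core, 4 the STAT site and 8 the E-box.

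The other exchangers differed little. Slc7a11 (xCT), the light chain that brings in cystine for glutathione in exchange for glutamate, went from 10.02 to 10.35, a difference of 0.34 or 1.26-fold. Slc7a6 (y+LAT2), which exports arginine in exchange for glutamine and sodium, was at 10.68 and 10.48, while its epithelial relative Slc7a7 (y+LAT1) was below background at 4.37 and 3.97. The light chains known to pair with Slc3a2 include Slc7a5, Slc7a6, Slc7a7, Slc7a8, Slc7a10 and Slc7a11. Of these 6, Slc7a8 and Slc7a11 had a higher knockout value and 4 a lower one (66.7%, beside 54.0% of all genes). Slc7a10, a carrier of small neutral amino acids known from brain and fat, was at 5.14 and 4.91, and Slc7a15 was below background at 4.45 and 4.20. The second heavy chain gene Slc3a1, partner of the kidney cystine carrier Slc7a9, was at 4.50 and 4.16, and Slc7a9 itself was also below background, at 4.19 and 4.14.

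Sodium-coupled carriers of system A and system N take up small neutral amino acids and glutamine. Slc38a2 (SNAT2), which cells are known to raise when amino acids run short, went from 12.07 to 11.85, a difference of -0.22. Its neighbours on chromosome 15 in the RefSeq gene order, Slc38a1 (4.12 and 4.49) and Slc38a4 (3.85 and 3.69), were below background. So was the system N gene Slc38a5, at 4.96 and 4.93, and Slc38a3 stood at 4.91 and 5.18.

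The lysosomal and other intracellular carriers that passed the filter differed by at most 0.17, apart from Slc36a4. Slc38a9, which senses arginine in the lysosome for mTORC1, had 9.10 in both samples, with a difference of 0.0024. Slc38a7, which releases glutamine from lysosomes, was at 9.09 and 9.22, Slc38a10 at 9.68 and 9.68, and Slc38a6 at 7.62 and 7.80. The sign of Slc38a9 turned when the columns were quantile-normalized again, and that of Slc38a10 turned when the median difference of all genes was subtracted. Slc38a8 (4.94 and 4.87) and Slc38a11 (3.50 and 3.25) were below background. Slc36a1 (PAT1), a proton-coupled exporter of small amino acids from lysosomes, was at 8.16 and 8.29, and Slc36a4 (PAT4) at 8.75 and 8.31, a difference of -0.44. Slc36a2 (5.02 and 4.65) and Slc36a3 (4.95 and 4.79), which stand in a row beside Slc36a1 on chromosome 11, were below background.

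The 57 carriers had a median difference of -0.12 and a mean of 0.10, beside -0.03 and 0.011 over all genes. A lower value in the knockout was found for 39 of the 57 (68.4%, beside 54.0% of all genes), for 37 after the median of all genes was subtracted and for 40 after the columns were quantile-normalized again. In 26 of the 57 carriers both values lay below background, beside 4532 of all 14860 genes, and 21 of these 26 carriers were among the 39. No share of lower values was taken over the 4532 genes, so the 21 has no matched share beside it. Of the 17 carriers above 6.76 in both samples, 12 were lower in the knockout (11 and 13 under those scalings), with a median of -0.20, beside 48.8% of the 7303 such genes on the array and their median of 0.01. These 12 were Slc1a4, Slc1a5, Slc3a2, Slc6a6, Slc6a8, Slc6a9, Slc7a1, Slc7a5, Slc7a6, Slc36a4, Slc38a2 and Slc38a10, and each except Slc6a9 and Slc7a5 differed by at most 0.47. Sorted into 14 groups of 2 to 11 members by transport system or gene family, the median differences ran from -0.39 for system ASC to 0.56 for system L. The latter is the middle of the 2 opposed members placed in it, and the 5 higher carriers belonged to 5 different groups. Slc43a2 was grouped by its family, apart from Slc7a8, although both carry large neutral amino acids. The 5 groups are thus not 5 separate transport systems.

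Genes that use amino acids, or sense their lack, were compared as 9 lists, of whose 153 genes 116 were measured under a symbol of their own. The lists were chosen with earlier results of these data known, so their shares only describe these genes. Of 14 genes of the amino acid response led by ATF4, 3 reached 2-fold, all higher in the knockout (21.4%, beside 4.62% of all genes that passed the filter), with a median difference of 0.40. These 3 were Sesn2, an inhibitor of mTORC1 that senses leucine, at 7.13 and 8.49 (2.56-fold), the lipoprotein receptor gene Vldlr at 7.80 and 8.89 (2.12-fold), and the mTORC1 inhibitor gene Ddit4 at 8.56 and 9.62 (2.09-fold). The phosphatase subunit gene Ppp1r15a (GADD34) was at 6.97 and 7.53. Atf4 itself was at 10.14 and 10.26, and Asns, the asparagine synthetase and a standard target of ATF4, was at 11.81 and 11.68. Of the 14, 10 had a higher knockout value (beside 46.0% of all genes). The 4 lower genes were Gpt2 (difference -0.50), Ddit3 (-0.35), Nupr1 (-0.24) and Asns (-0.13). Sesn2 and Ddit4 are also known as targets of p53.

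Serine, glycine and proline synthesis genes had a lower value in 7 of 7 cases (6 with the median of all genes subtracted, and 54.0% of all genes were lower), with a median of -0.19 and no member at 2-fold. The list held 12 genes, and those not measured included Phgdh. Shmt2 (difference -0.02), Aldh18a1 (-0.04) and Cbs (-0.04, below the filter) lay near the median of all genes, -0.03. Mthfd2, a mitochondrial folate enzyme, went from 9.26 to 8.60, Psat1 of the serine pathway from 9.89 to 9.43, Psph, the last enzyme of that pathway, from 9.01 to 8.77, and Shmt1, which makes glycine from serine, from 9.10 to 8.91. Among 15 aminoacyl-tRNA synthetase genes, Yars, the tyrosine enzyme, was 2.27-fold lower, at 9.85 and 8.67. This was 1 gene of 15, and 2.97% of all genes that passed the filter were at least 2-fold lower. The other 14 did not reach 2-fold, among them Cars, the cysteine enzyme, at 8.51 and 8.90, Kars, the lysine enzyme, at 10.45 and 10.17, and Qars, the glutamine enzyme, at 9.90 and 10.11. The list's median was -0.09.

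Among 19 genes of amino acid sensing by mTORC1, Sesn2 alone reached 2-fold (median 0.03). It made up 5.88% of the 17 that passed the filter, near the 4.62% of all such genes that were higher. Rragc, a Rag GTPase that recruits mTORC1 to the lysosome, was at 10.23 and 9.45, Sesn1 at 8.27 and 8.84, and Sesn3 at 9.69 and 9.16. The list of glutathione synthesis and cystine use also held genes with other roles, such as Hmox1, Nqo1 and Chac2. It had a higher knockout value in 7 of 8 genes (beside 46.0% of all genes), a median of 0.30 and none at 2-fold. Among the 7, Nqo1 was below background in both samples at 3.00 and 3.08, and with the columns quantile-normalized again 2 of the 8 were lower in place of 1. The haem oxygenase gene Hmox1 was at 8.33 and 8.96, the lipid peroxide reductase gene Gpx4 at 9.99 and 10.55, Chac2, which degrades glutathione, at 8.28 and 8.62, and the glutathione synthetase gene Gss at 8.36 and 8.67.

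Of 15 genes that metabolise glutamate, GABA, taurine and creatine, none that passed the filter reached 2-fold (median -0.11). Aldh5a1, an enzyme of GABA breakdown, was at 7.03 and 7.85, the mitochondrial creatine kinase gene Ckmt1 at 8.33 and 7.74, the brain-type creatine kinase gene Ckb at 7.04 and 7.30, and Csad, an enzyme of taurine synthesis, at 6.90 and 6.75. Below the filter, the glutamine synthetase gene Glul went from 5.54 to 4.34, a difference of -1.21, or -0.49 with the knockout value raised to the background level. In the arginine and polyamine list (6 genes, median 0.02) the 2 genes above the filter differed in opposite directions, with the urea cycle lyase gene Asl at 7.60 and 8.32 and the spermidine synthase gene Srm at 11.11 and 10.51. The arginase gene Arg1, below the filter, went from 5.70 to 4.56, a difference of -1.14, or -0.64 with the knockout value raised likewise.

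The list of other carriers of amino acids, peptides and transmitters, such as the mitochondrial and vesicular carriers, held 25 genes outside the family-name rule. It included Slc6a20a and Slc6a20b, which belong to the Slc6a family. The list had a median of -0.03 and no gene at 2-fold. The aromatic amino acid carrier gene Slc16a10 was at 7.16 and 6.43, the mitochondrial ornithine carrier gene Slc25a15 at 9.39 and 8.96, the lysosomal cystine carrier gene Ctns at 9.43 and 9.71, and the lysosomal peptide and histidine carrier gene Slc15a4 at 8.58 and 8.37. Of 8 measured receptor genes for glutamate, GABA, glycine and amines, 7 were below background in both samples (the median of the list was -0.06). The exception was Gria3, a subunit of the AMPA-type glutamate receptor, which went from 3.13 to 9.41, or 20.5-fold from the background level.

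**Figure D3:**
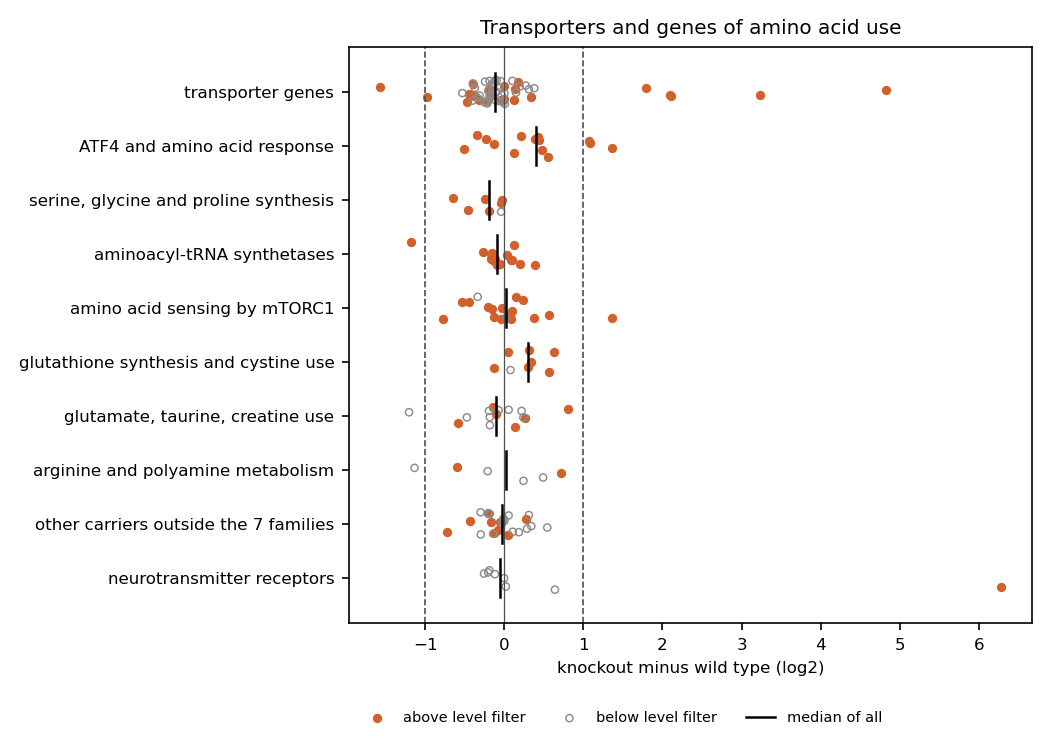
Differences (knockout minus wild type, log2, horizontal axis) of the 57 carriers and of the genes in 9 lists of amino acid use, sensing and transmission, 1 point per gene, filled where the gene passed the level filter, with a bar at the median of all measured members. The 5 higher carriers stand apart on the right of the top line, Gria3 is the outermost point of the receptor list, and the medians of all lists lie between -0.19 and 0.40.

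Some markers of other airway cells also had higher knockout values. Of 5 club cell markers, the 2 that passed the filter had higher knockout values, Cyp2f2 at 6.48 and 9.63 and Cbr2 at 10.90 and 11.42. Cyp2f2 passed by its knockout value only, so it had to be higher, while Cbr2 passed in both samples and differed by 1.43-fold. The other 3, among them the defining Scgb1a1 at 2.35 and 2.30, were below background in both samples, and the median difference of the list was 0.23, or 0 with low values raised to the background level. Of 5 ciliated cell markers, Foxj1 was higher (6.22 and 8.97), but it too passed by its knockout value only. The other 4 were below background in both samples, and the median difference was 0.16, or 0 with low values raised. The part of these cell types in the values of Slc6a14, Slc1a1, Slc7a8, Slc7a2 and Slc43a2 was not tested.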

How the data were processed

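Total RNA of 2 samples was measured on a whole-transcript Affymetrix array. Per the labels' protocols, 250 ng of RNA gave biotin-labelled sense-strand cDNA. The deposited log2 values were made with RMA and Affymetrix Expression Console, per the submitters' processing notes. RMA as commonly run corrects background, equalises the arrays' distributions and understates large ratios. The versions, the filters and the genome build are not given in these sources. The sorted columns differed by at most 0.17, so a global change of RNA could not be seen. Precision is limited by having 1 array per genotype.

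The array annotation gave 1 symbol to 14996 of 23332 probe sets, for 14860 genes, and the probe set with the highest mean was taken where a gene had several. All 57 carriers matched RefSeq by Entrez ID. Transport systems, some of them named by gene family such as SLC43, were assigned from textbook knowledge. Members, lists and motifs were chosen with earlier results of these data known. The rule for named genes took every member above the level filter or at 2-fold, up to 2 further members per system by highest mean value, and up to 4 genes of each list, or 2 where none passed the filter, and other genes were named after their values were seen. Values were computed with Python 3.11.15, numpy 2.4.6 and pandas 2.3.3. The counting step was run on simulated data with large changes placed only in genes well above the filter. It thus did not cover changes from low values, and its noise was assumed. Alternatives changed the filter, the treatment of low values, the probe sets of a gene, the normalization, the centring and the fold threshold.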

Additional observations from a re-analysis of the deposited data

How the results depend on the processing

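With 1 sample per genotype no sample could be left out, and no paired analysis was possible because each group holds a single sample. Over all alternatives 367 of 379 recomputed values stayed within 1.5 times their first value, taken as a count or, for log2 differences and medians, as a fold. Small differences could thus change sign, and no difference of 2-fold or more did. Many of the 379 could not move, so this count is no measure of robustness. Each carrier has 1 probe set, medians taken without the filter repeat the first ones, and the counts of lower values do not use the filter. With values below background raised to it, the difference of Gprc5a was -4.43, that of Slc6a14 3.88 and that of Slc1a1 2.57, and the carriers with a lower knockout value numbered 18 in place of 39, since values raised to the same level do not differ. Requiring both values above 6.76 left 0 higher carriers, a system L median of -0.98 (Slc7a5 alone) and 0 higher receptor genes, as Gria3 dropped out. Without the filter, 1 lower gene was counted in the glutamate and creatine list (Glul) and 1 in the arginine list (Arg1), each with a knockout value below background, and with that value raised neither reached 2-fold (1.40-fold and 1.56-fold). The lower carriers numbered 2 at 1.5-fold and 0 at 3-fold. After quantile normalization 2 genes of the glutathione list were lower in place of 1. Subtracting the median moved no value by 1.5 times. Neither did averaging probe sets, which could not move a carrier because each has 1 probe set. The ratios of Slc6a14, Slc1a1 and Slc7a8 are limited by wild-type values below background.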
